A study of Mus musculus with 12 samples.

Results

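Transcripts of the T cell receptor complex were followed in RNA from type 1 conventional dendritic cells (cDC1) of mouse inguinal lymph nodes, where T cells and dendritic cells touch and where a T cell bound to or carried with a dendritic cell can enter a preparation. The 10 genes, of 31049 with a count and 18095 tested, are the parts of the receptor complex and of its nearest signalling. They were chosen by function, with earlier results of these data known. They are the CD3 chains Cd3d, Cd3e and Cd3g, the receptor constant regions Trac and Trbc2, and the coreceptors Cd4 and Cd8b1. The others are the signalling proteins Lck and Lat, and the transcription factor Bcl11b. All 10 passed the filter on low counts. The 12 libraries fall into 4 groups of 3. Tumor-CD40 mice carried KPC tumor cells under the skin (KPC lines come from a genetic model of pancreatic cancer) and were given a CD40 agonist, Tumor-NoCD40 mice carried the tumor and had no agonist, NoTumor-CD40 mice had the agonist alone, and NoTumor-NoCD40 mice had neither. No dose, time, sort gate, mouse strain or age is given in the labels used here, nor whether the libraries of a group came from separate animals, so that the p-values speak of library spread alone.

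On a T cell, the alpha and beta chains of the receptor bind a peptide held by an MHC molecule, and the CD3 chains carry the signal into the cell. CD4 and CD8 bind the MHC molecule from the side and bring the kinase LCK to the complex, which phosphorylates CD3; ZAP-70 and the adaptor LAT relay the signal. Dendritic cells do not rearrange receptor genes, but mouse cDC1 of lymphoid organs make the CD8 alpha chain, so Cd8a is not a sign of T cells in them, whereas the beta chain gene Cd8b1 is characteristic of T cells. Cd4 is also made by some other dendritic cells.

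Each library held between 22855143 and 27163393 expected counts, in 20175 to 22523 genes. Library titles open with a number, written here as the title prefix: 091218 for library 1 and 091318 for library 2 of every group, 091418 for library 3 of Tumor-CD40, Tumor-NoCD40 and NoTumor-CD40, and 092518 for library 3 of NoTumor-NoCD40. The labels do not say what the prefix stands for. The 15 cDC1 markers were detected in every library, and their summed level ranged between 5436 and 7509 CPM in Tumor-CD40, 2998 and 14870 CPM in Tumor-NoCD40, 3581 and 10786 CPM in NoTumor-CD40, and 9804 and 13451 CPM in NoTumor-NoCD40 libraries. CPM are counts scaled to a common library total by edgeR's TMM factors. The extremes were both Tumor-NoCD40 libraries, library 3 with the lowest cDC1 sum and library 2 with the highest, and the same libraries stand apart in the receptor complex transcripts below.

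The 3 CD3 genes lie side by side on chromosome 9 of GRCm38 (mm10). Cd3g (44969572 to 44980431, minus strand) and Cd3d (44981786 to 44987339, plus strand) are read away from each other with 1355 bases between their starts, and Cd3e (44998740 to 45009627, minus strand) is the neighbour of Cd3d. Lck (chromosome 4, 129548344 to 129573641, minus strand) has a distal and a proximal promoter, of which the distal one is known for use in mature T cells. The 250 bases before the start site are shown for the CD3 genes, as neighbours, and for Lck, whose counts were divided between both starts. Sequences are from RefSeq (GRCm38.p6), 5′ to 3′ on the strand of the gene. Capitals mark the motifs AGGAAG (ETS factors), CAGNTG (E box) and TGTGGT (RUNX factors) on either strand.
Cd3g, chr9:44980432-44980681: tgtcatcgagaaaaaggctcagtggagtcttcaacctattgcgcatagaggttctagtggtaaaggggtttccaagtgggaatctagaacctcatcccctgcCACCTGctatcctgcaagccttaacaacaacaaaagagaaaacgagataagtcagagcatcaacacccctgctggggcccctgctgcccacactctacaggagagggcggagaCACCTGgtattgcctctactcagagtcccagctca
Cd3d, chr9:44981536-44981785: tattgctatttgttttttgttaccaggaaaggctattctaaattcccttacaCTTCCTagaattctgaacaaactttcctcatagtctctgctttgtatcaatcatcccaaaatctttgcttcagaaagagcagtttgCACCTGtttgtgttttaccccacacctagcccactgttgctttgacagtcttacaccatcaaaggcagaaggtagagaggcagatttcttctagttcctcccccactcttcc
Cd3e, chr9:45009612-45009861: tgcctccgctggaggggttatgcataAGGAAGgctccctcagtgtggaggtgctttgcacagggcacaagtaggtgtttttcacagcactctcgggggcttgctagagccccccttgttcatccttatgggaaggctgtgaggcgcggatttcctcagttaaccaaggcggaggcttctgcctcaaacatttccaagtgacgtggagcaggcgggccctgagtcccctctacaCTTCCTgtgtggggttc
Lck distal, chr4:129573642-129573891: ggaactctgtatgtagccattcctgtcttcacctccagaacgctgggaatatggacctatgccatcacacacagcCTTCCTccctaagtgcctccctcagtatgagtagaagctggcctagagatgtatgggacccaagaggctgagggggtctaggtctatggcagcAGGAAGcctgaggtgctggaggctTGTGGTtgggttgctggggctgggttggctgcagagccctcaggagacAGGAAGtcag
Lck proximal, chr4:129558373-129558622: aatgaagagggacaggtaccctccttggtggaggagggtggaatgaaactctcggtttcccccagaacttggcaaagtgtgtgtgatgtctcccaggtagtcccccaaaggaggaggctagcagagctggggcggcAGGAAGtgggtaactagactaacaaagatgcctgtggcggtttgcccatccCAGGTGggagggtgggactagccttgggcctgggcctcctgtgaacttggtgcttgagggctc
Windows were found for 6 of the 10 genes, 7 windows in all with 2 for Lck. Those of Lat and Bcl11b are counted here and are not shown. The ETS motif was in 5 of the 7 windows, and in 29.5% of all 32817 promoter windows of this length. The E box was in 4 of the 7, and in 44.8% of all, and the RUNX motif in 1, the distal Lck window, and in 14.04% of all. None of the 7 held TATAAA, which 12.4% of all windows hold. A match describes the letters only, and a link to the levels was not tested.

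All 10 transcripts were present in all 12 libraries. Levels of different genes are compared here in TPM, which are scaled by length, for the most counted transcript of each gene, because very short minor transcripts otherwise carry much of the TPM of a gene. Trbc2-201, the constant region of the beta chain, was the most abundant at a median of 68.2 TPM (range 29.4 to 279.6). Trac-202 of the alpha chain followed at 22.0 TPM, Cd3g-201 at 21.2, Cd8b1-201 at 12.1, Cd3d-201 at 10.7, Lat-201 at 10.4, Cd3e-201 at 7.21, Lck-202 at 5.43, Cd4-201 at 3.69 and Bcl11b-201 at 0.655 TPM. The ranges of neighbours in this order overlapped across libraries, except for Cd4-201 (2.45 to 8.95 TPM) and Bcl11b-201 (0.317 to 2.28 TPM). The order is one of single transcripts and not of whole genes. Lck-202 held 10.4% to 65.2% of the TPM of its gene, which has other protein-coding transcripts, and Trac-202 held 29.99% to 57.35%. Xcr1-201, the transcript of the chemokine receptor that marks cDC1, had 9.92 to 123.7 TPM in the same libraries. In library 3 of Tumor-NoCD40 Trbc2-201 reached 279.6 TPM beside 13.8 TPM of Xcr1-201, and in library 2 of that group Trbc2-201 had 29.4 TPM beside 114.8 TPM of Xcr1-201.

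Across libraries the transcripts were highest in the mice with tumors, but not in all of them. Cd3e, the CD3 chain shared by every receptor complex, measured 31.0, 17.2 and 28.7 CPM in Tumor-CD40 libraries 1 to 3 and 31.4, 11.3 and 64.8 CPM in Tumor-NoCD40 libraries 1 to 3, against 16.8, 17.3 and 18.4 CPM in NoTumor-CD40 and 13.8, 24.6 and 19.3 CPM in NoTumor-NoCD40 libraries. Libraries 1 and 3 of both tumor groups lay above all others, and library 2 of both lay within or below the range of the tumor-free libraries. Cd3d had 45.6, 16.3 and 49.9 CPM in Tumor-CD40 and 39.0, 12.01 and 96.1 CPM in Tumor-NoCD40 libraries, against 28.6, 18.02 and 24.9 CPM in NoTumor-CD40 and 18.9, 23.1 and 23.5 CPM in NoTumor-NoCD40 libraries. Cd3g had 46.9, 14.2 and 41.2 CPM in Tumor-CD40 and 46.9, 12.6 and 61.3 CPM in Tumor-NoCD40 libraries, against 19.7, 14.2 and 23.3 CPM in NoTumor-CD40 and 15.3, 25.7 and 29.0 CPM in NoTumor-NoCD40 libraries. For both chains, library 2 of each tumor group lay at or below the lowest tumor-free library, so that the groups overlapped.

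Trac and Trbc2, the constant regions of the alpha and beta chains, were also highest in libraries 1 and 3 of both tumor groups, and Trac was lowest in library 1 of NoTumor-NoCD40 and Trbc2 in library 2 of Tumor-NoCD40. Trac had 57.2, 21.6 and 56.4 CPM in Tumor-CD40 and 54.4, 22.5 and 100.6 CPM in Tumor-NoCD40 libraries, against 30.8, 21.6 and 31.5 CPM in NoTumor-CD40 and 19.5, 33.5 and 37.2 CPM in NoTumor-NoCD40 libraries. Trbc2 had 99.7, 29.4 and 110.2 CPM in Tumor-CD40 and 102.9, 23.5 and 203.8 CPM in Tumor-NoCD40 libraries, against 47.2, 36.9 and 55.0 CPM in NoTumor-CD40 and 35.0, 56.7 and 52.1 CPM in NoTumor-NoCD40 libraries. In neither gene was library 2 of a tumor group above all tumor-free libraries. Trbc1, a near-identical copy whose reads the counting may have shared with Trbc2, ranged from 18.4 to 90.7 CPM and was also highest in Tumor-NoCD40 library 3, so the division between both copies is uncertain.

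Both coreceptors were found in every library. Cd4, the coreceptor of helper T cells, had 31.1, 18.2 and 31.4 CPM in Tumor-CD40 and 39.5, 16.0 and 46.1 CPM in Tumor-NoCD40 libraries, against 13.5, 13.98 and 17.9 CPM in NoTumor-CD40 and 16.2, 15.8 and 24.1 CPM in NoTumor-NoCD40 libraries. With the agonist, the tumor libraries were all above the tumor-free ones, although library 2 by a narrow margin. Cd8b1, of the coreceptor of cytotoxic T cells, had 35.4, 13.3 and 42.2 CPM in Tumor-CD40 and 46.5, 15.4 and 74.2 CPM in Tumor-NoCD40 libraries, against 25.5, 20.7 and 33.5 CPM in NoTumor-CD40 and 10.4, 29.3 and 14.6 CPM in NoTumor-NoCD40 libraries. The ratio of Cd8b1 to Cd4 counts ranged from 0.606 to 1.89, with a median of 1.14 in Tumor-CD40, 1.18 in Tumor-NoCD40, 1.87 in NoTumor-CD40 and 0.639 in NoTumor-NoCD40 libraries. No group had the one coreceptor without the other.

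The signalling genes followed the receptor. Lck, the kinase bound to the coreceptors, had 53.6, 27.5 and 65.6 CPM in Tumor-CD40 and 50.3, 19.2 and 116.4 CPM in Tumor-NoCD40 libraries, against 38.9, 31.4 and 38.1 CPM in NoTumor-CD40 and 20.7, 33.7 and 33.7 CPM in NoTumor-NoCD40 libraries. Lat, the membrane adaptor, had 39.0, 13.3 and 37.3 CPM in Tumor-CD40 and 33.3, 15.7 and 91.0 CPM in Tumor-NoCD40 libraries, against 16.3, 16.6 and 17.7 CPM in NoTumor-CD40 and 13.1, 25.7 and 23.2 CPM in NoTumor-NoCD40 libraries. In both genes library 2 of Tumor-CD40 lay below every NoTumor-CD40 library. Bcl11b, the transcription factor that keeps T cells in their lineage, was lower, with 9.95, 7.76 and 14.9 CPM in Tumor-CD40 and 16.9, 6.14 and 35.8 CPM in Tumor-NoCD40 libraries, against 11.4, 7.07 and 12.6 CPM in NoTumor-CD40 and 7.19, 13.1 and 18.7 CPM in NoTumor-NoCD40 libraries. It was the one of the 10 whose 4 highest libraries were not libraries 1 and 3 of both tumor groups. All 10 were highest in library 3 of Tumor-NoCD40, and 6 of the 10 were lowest in library 2 of the same group.

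**Figure D1:**
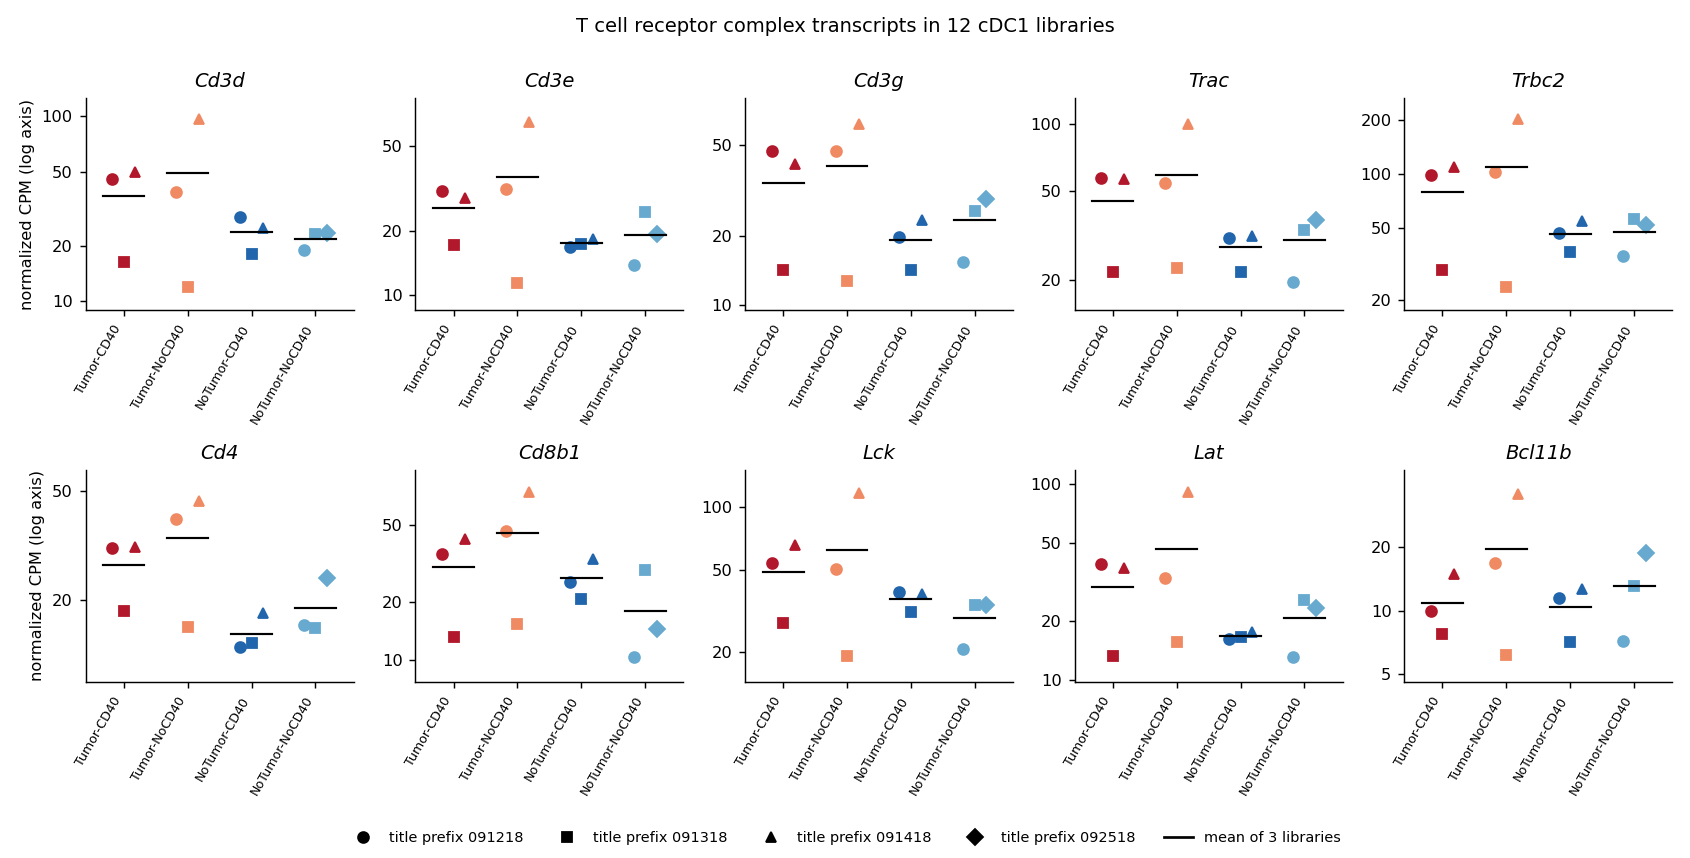
Normalized CPM (log axis) of the 10 transcripts in each library, by group, with the marker shape giving the title prefix and the line the mean of 3 libraries. In 9 of the 10 panels, all but Bcl11b, libraries 1 and 3 of both tumor groups (circles and triangles) are the 4 highest, and the squares of the tumor groups lie at or below most tumor-free libraries, except for Cd4.

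The first comparison asked what the tumor did to cDC1 preparations without the agonist. All 10 fold changes were positive, as were 49.0% of those of all genes tested. They lay between 0.60 for Bcl11b and 1.33 for Cd8b1 on the log2 scale, with a median of 1.03, against -0.01 over all genes. The 10 genes varied together, as given below. A count of their signs is therefore not one of separate observations, here, in the other comparisons or within a title prefix. None of the 10 passed the threshold of 0.05 on the adjusted p by edgeR's quasi-likelihood test, and neither did any of the 18095 genes (0%). At an unadjusted p under 0.05 there were 4 of the 10 (Cd4, Cd8b1, Lck and Lat), beside 1053 of all genes, which is 5.82%. Cd3e averaged 35.9 ± 27.0 CPM in Tumor-NoCD40 and 19.2 ± 5.37 CPM in NoTumor-NoCD40 libraries (SD, n = 3 each), a log2 fold change of 0.90 ± 0.45 (SE) with an adjusted p of 0.775. Cd8b1 averaged 45.4 ± 29.4 CPM in Tumor-NoCD40 and 18.1 ± 9.92 CPM in NoTumor-NoCD40 libraries, a log2 fold change of 1.33 ± 0.52 (SE), again with an adjusted p of 0.775. For each of the 10 genes the SD in Tumor-NoCD40 was larger than that in NoTumor-NoCD40 libraries, with library 3 the highest of all 12 and library 2 among the lowest.

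That average rested on library 3 of Tumor-NoCD40. Without it the median of the 10 log2 fold changes was 0.30 and that of Bcl11b was -0.18. Without library 2 of Tumor-NoCD40 the median was 1.44. Within the title prefix 091218 all 10 were higher in the Tumor-NoCD40 than in the NoTumor-NoCD40 library, by a median of 1.32 on the log2 scale. Within 091318, 9 of the 10 were lower in the Tumor-NoCD40 library, with a median log2 ratio of -0.93, the exception being Cd4 at 0.01. The prefixes of library 3 differ between these groups and gave no such pair. The direction therefore differed between prefixes, and in bulk RNA a change in the number of T cells and one in the RNA per T cell cannot be told apart.

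With the agonist, Tumor-CD40 libraries also had the higher means. All 10 log2 fold changes over NoTumor-CD40 were positive, as were 48.9% of those of all genes tested. They lay between 0.07 for Bcl11b and 0.84 for Cd3g, with a median of 0.67, against -0.01 over all genes. None of the 10 passed, while 36 of all genes did, which is 0.199%. At an unadjusted p under 0.05 there was 1 of the 10, beside 9.32% of all genes. It was Cd4, which averaged 26.9 ± 7.51 CPM in Tumor-CD40 and 15.1 ± 2.43 CPM in NoTumor-CD40 libraries (SD, n = 3 each). Its log2 fold change was 0.83 ± 0.35 (SE), with an adjusted p of 0.509 by edgeR's test. It was also the one member whose groups did not overlap, as was the case in this direction for 6.68% of all genes. Within 091218, 9 of the 10 were higher in the Tumor-CD40 library, with a median log2 ratio of 0.89, and within 091418 all 10 were, with a median of 0.82. Within 091318, 7 of the 10 were lower, with a median of -0.07.

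**Figure D2:**
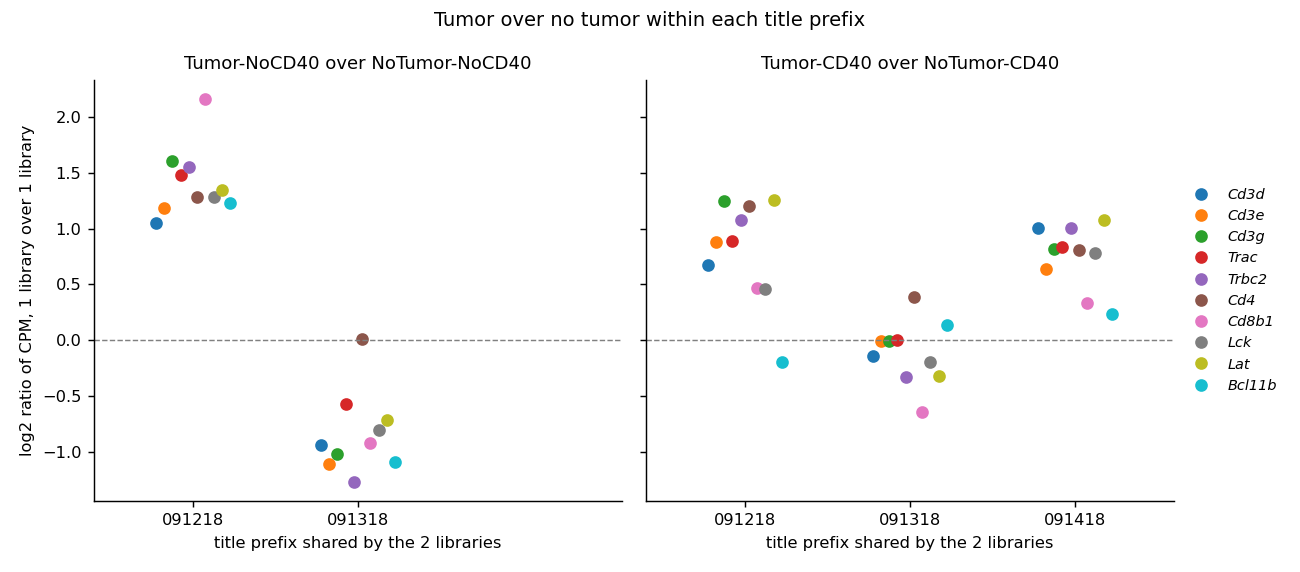
Log2 ratio of CPM for each of the 10 transcripts between a tumor and a tumor-free library with the same title prefix, without the agonist (left) and with it (right). The ratios are above 0 for all 10 in 091218 on the left and in 091418 on the right, and below 0 for 9 of 10 in 091318 on the left.

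The agonist itself was compared in mice with and without the tumor. In mice with the tumor, all 10 were lower on average in Tumor-CD40 than in Tumor-NoCD40 libraries. The log2 fold changes lay between -0.85 for Bcl11b and -0.24 for Cd3g, with a median of -0.43, against -0.02 over all genes tested. None of the 10 passed, beside 124 of all genes (0.685%), and none reached an unadjusted p under 0.05, beside 9.96% of all genes. Without library 3 of Tumor-NoCD40, 7 of the 10 were positive and the median was 0.26. Within 091218 the 10 were split 5 to 5, within 091318 7 were higher, and within 091418 all 10 were lower in the Tumor-CD40 library, with a median log2 ratio of -0.86.

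In mice without the tumor, 3 of the 10 were higher on average with the agonist (Cd3d, Cd8b1 and Lck), and the median log2 fold change was -0.12, against -0.04 for all genes. None of the 10 passed, beside 261 of all genes (1.44%), and none had an unadjusted p under 0.05, beside 18.4% of all genes. The median moved when single libraries of NoTumor-NoCD40 were left out: it was -0.33 without library 1, 0.04 with 5 of the 10 positive without library 2, and 0.02 with 6 of the 10 positive without library 3. Cd8b1 had the largest value of the 10, with 26.6 ± 6.49 CPM in NoTumor-CD40 and 18.1 ± 9.92 CPM in NoTumor-NoCD40 libraries and a log2 fold change of 0.55 ± 0.53 (SE), at an adjusted p of 0.611 by edgeR's test. Within 091218, 9 of the 10 were higher in the NoTumor-CD40 library, with a median log2 ratio of 0.52, and within 091318 all 10 were lower, with a median of -0.56. The difference between the agonist's effects with and without the tumor was tested as an interaction. It was negative for 9 of the 10, with a median of -0.39, against 0.03 over all genes tested. It passed for none of the 10 by edgeR's test (0% of all genes). The largest was that of Cd8b1 at -1.14 ± 0.73 (SE), with an adjusted p of 0.615 by that test. None of the 10 had an unadjusted p under 0.05, beside 9.80% of all genes. Without library 3 of Tumor-NoCD40 the interaction was positive for 9 of the 10, with a median of 0.37.

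**Figure D3:**
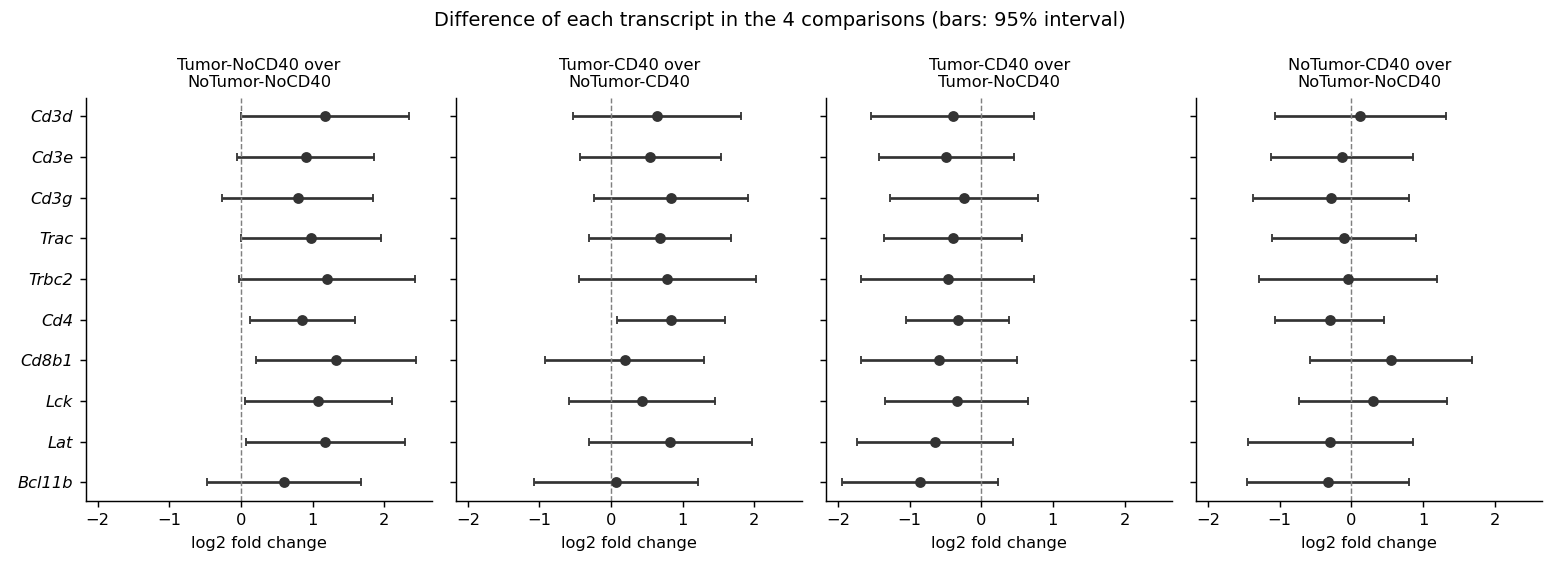
Log2 fold changes of the 10 transcripts (points) with 95% intervals (bars) in 4 comparisons, 2 of tumor and 2 of agonist. All points lie above 0 in both tumor comparisons and below 0 for the agonist with the tumor, and the intervals leave out 0 only for Cd4, Cd8b1, Lck and Lat without the agonist and for Cd4 with it.

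The 10 transcripts varied together. The correlation of log2(CPM + 1) with Cd3e across the 12 libraries was between 0.84 for Bcl11b and 0.96 for Lat (Pearson's r), and between 0.76 for Cd4 and 0.94 for Lat (Spearman's rho). All 9 relations were computed, with adjusted p between 4.5e-05 and 0.00096 for r and between 0.00021 and 0.00556 for rho (2-sided permutation test with 100000 resamples, adjusted over the 9 relations). The raw p for r lay between 1e-05, the smallest that these resamples can give, and 0.00096. The permutations took the 12 libraries as exchangeable, without regard to group or title prefix. Because the genes were chosen with earlier results of these data known, these p-values only describe the relations. Without libraries 3 and 1 of Tumor-NoCD40, which were farthest from the median of Cd3e, r was between 0.60 for Bcl11b and 0.93 for Trbc2. With the group means subtracted, r was between 0.85 for Cd4 and 0.97 for Lck. This r pools the 4 groups. Cd3e varied most in Tumor-NoCD40 (SD 27.0 CPM) and least in NoTumor-CD40 libraries (SD 0.813 CPM). The pooled r therefore does not show that the genes varied together inside each group. The ratio of each gene to Cd3e varied less than its level: the coefficient of variation over the libraries was 16.4% to 29.3% for the ratios of the other 9 to Cd3e and 46.0% to 76.2% for the levels of all 10.

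Cd8a did not move with them. The ratio of Cd8a to Cd8b1 counts ran from 2.89 in library 3 of Tumor-NoCD40 to 48.2 in library 1 of NoTumor-NoCD40. Cd8a had its highest level, 714 CPM, in library 2 of Tumor-NoCD40, where Cd3e was lowest. It was nearly as high, at 713 CPM, in library 2 of NoTumor-NoCD40, where Cd3e had 24.6 CPM. The lowest level of Cd8a, 150 CPM, was in library 3 of NoTumor-CD40, where Cd3e had 18.4 CPM. The coefficient of variation of the ratio of Cd8a to Cd3e was 72.0%, above that of Cd8a itself at 43.5%. The correlation of Cd8a with the mean profile of the 10 genes was -0.59 over the 12 libraries.

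**Figure D4:**
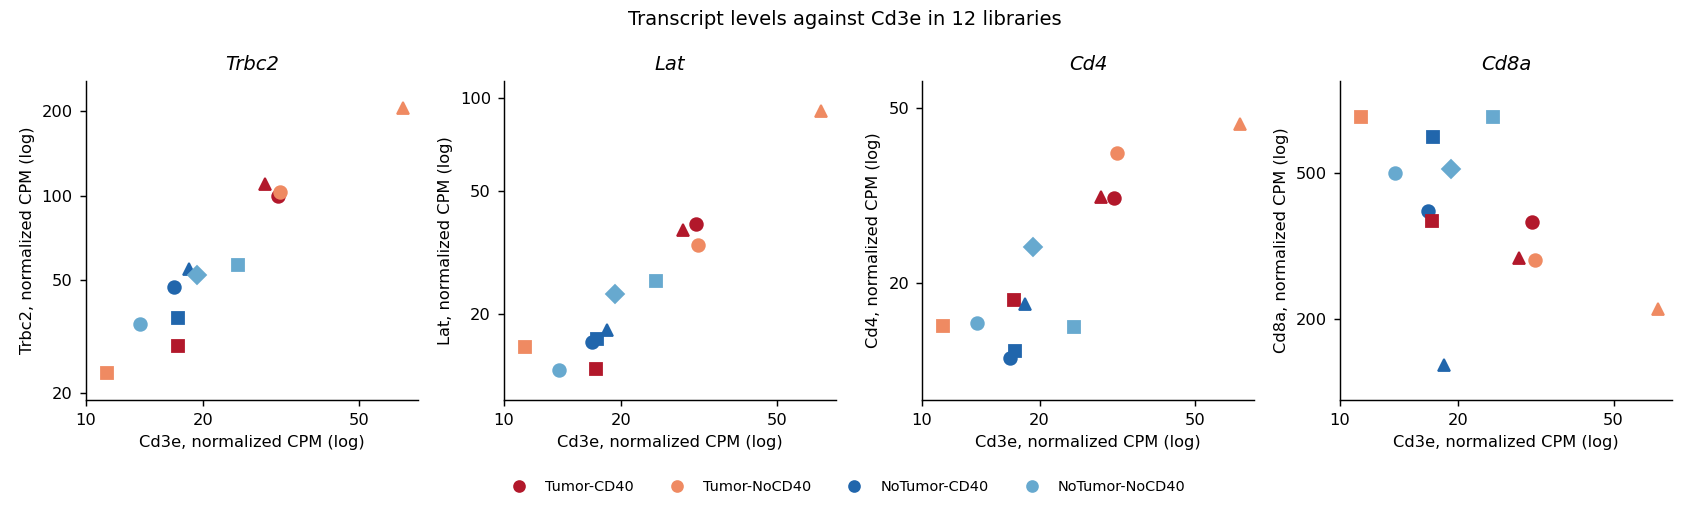
CPM of Trbc2, Lat, Cd4 and Cd8a against that of Cd3e in the 12 libraries, all axes logarithmic, with colors for groups and marker shapes for title prefixes as in the plot of levels by library. Trbc2, Lat and Cd4 are higher where Cd3e is higher, and Cd8a is lowest or nearly so at the highest Cd3e.

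The genes whose pattern was most like the mean profile of the 10, over the 12 libraries and among 18085 other tested genes, were Trbc1 (r = 0.97), Cd27 (0.96), Thy1 (0.95), Ctsw (0.95), Cd6 (0.95), Zap70 (0.94), Pdlim1 (0.94), Cd2 (0.94), Skap1 (0.94) and Nsg2 (0.93). All 10 of these were highest in library 3 of Tumor-NoCD40. Zap70 encodes the kinase that binds phosphorylated CD3, and had 33.1, 10.2 and 28.3 CPM in Tumor-CD40 and 24.5, 8.70 and 53.6 CPM in Tumor-NoCD40 libraries, against 15.3, 14.4 and 13.5 CPM in NoTumor-CD40 and 5.47, 20.6 and 18.3 CPM in NoTumor-NoCD40 libraries. Thy1, a surface glycoprotein of T cells, had 92.7, 34.2 and 74.6 CPM in Tumor-CD40 and 83.8, 23.1 and 142.7 CPM in Tumor-NoCD40 libraries, against 50.7, 36.9 and 47.1 CPM in NoTumor-CD40 and 41.8, 61.1 and 61.7 CPM in NoTumor-NoCD40 libraries. In both genes libraries 1 and 3 of the tumor groups were above the tumor-free libraries.

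The wider pathway was followed by lists. Of 21 further genes of T cell receptor signalling, 10 had a correlation over 0.8 with the profile of the 10, as did 8 of 15 other T cell identity genes, 3 of 10 CD8 T cell and cytotoxic genes and 1 of 10 CD4 helper and regulatory genes, against 120 of 18085 among all genes. Those of the signalling list included Cd247, the zeta chain of the complex (r = 0.89), the costimulatory receptor Cd28 (0.91) and the surface receptor Cd5 (0.90). Vav1 (-0.58), Csk (-0.21) and Grap2 (-0.33) of the same list, signalling proteins that other blood cells also make, had negative correlations. Of the gamma delta T cell list none of 7 exceeded 0.8, and of the NK cell list 1 of 10 did. The 7 gamma delta genes had r from 0.27 to 0.75, with a median of 0.51. Their levels were low, at most 10.4 CPM in any library. None of the 21 signalling genes passed in any of the 5 comparisons. Among the other T cell lists, Igfbp4, a binding protein of insulin-like growth factors that is made well beyond T cells, rose with the agonist in mice without the tumor (46.2 ± 23.9 CPM in NoTumor-CD40 and 11.5 ± 2.24 CPM in NoTumor-NoCD40 libraries, SD, n = 3 each), a log2 fold change of 2.01 ± 0.42 (SE) with an adjusted p of 0.0326 by edgeR's test. Runx3, a transcription factor of CD8 T cells and other leukocytes, rose with the agonist in mice with the tumor, to 129.9 ± 16.0 CPM in Tumor-CD40 libraries against 61.7 ± 11.8 CPM in Tumor-NoCD40 libraries. Its log2 fold change was 1.07 ± 0.19 (SE), with an adjusted p of 0.0192 by the same test. Over all genes, 1.44% passed for the agonist without the tumor and 0.685% with it. Neither gene followed the profile of the 10 closely, with r of 0.32 for Igfbp4 and -0.27 for Runx3.

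Variable segments of the receptor were also counted. Of 22 beta variable segment genes in the table, 12 to 18 had at least 10 counts in a library. Their summed level was 29.9, 19.5 and 28.1 CPM in Tumor-CD40 and 38.7, 11.5 and 76.4 CPM in Tumor-NoCD40 libraries, against 25.7, 13.98 and 18.5 CPM in NoTumor-CD40 and 12.6, 19.99 and 22.88 CPM in NoTumor-NoCD40 libraries. The highest and lowest were library 3 and library 2 of Tumor-NoCD40. The most counted beta segment held between 10.3% and 21.2% of the beta segment counts of a library, and no single segment made up most of them. Of 93 alpha variable segment genes, 6 to 34 had at least 10 counts, with summed levels between 5.04 CPM in library 2 and 38.7 CPM in library 3 of Tumor-NoCD40.

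The counts of Lck were divided among its transcripts in a way that differed between libraries. Lck-202, which starts at the distal promoter, held 48.7%, 52.8% and 26.7% of the gene's counts in Tumor-CD40 and 84.0%, 71.4% and 75.8% in Tumor-NoCD40 libraries, against 59.7%, 18.4% and 65.3% in NoTumor-CD40 and 20.01%, 31.3% and 90.0% in NoTumor-NoCD40 libraries. The 4 transcripts that start at or shortly after the proximal promoter together held 0.850% to 77.5%. Among them Lck-207, which has a retained intron, starts inside the gene at 129558087 and not at the promoter itself. It made up the whole 0.850%, in library 3 of NoTumor-NoCD40. Distal and proximal transcripts share most of their sequence, so this division is an estimate of the authors' quantification and its error is not known. For Cd3e, 3 transcripts with a retained intron held between 3.73% and 31.7% of the counts. Cd8b1 and Trbc2 each had a single transcript.

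Markers of other cell types moved between the same libraries. In library 3 of Tumor-NoCD40 the 10 receptor complex transcripts summed to 890.1 CPM, the 15 cDC1 markers to 2998 CPM, the 15 mature dendritic cell markers to 25680 CPM and the 14 B cell markers to 99.8 CPM. In library 2 of Tumor-NoCD40 the sums were 154.4 CPM for the receptor complex, 14870 CPM for cDC1, 7920 CPM for mature dendritic cells and 86.7 CPM for B cells. A low cDC1 sum did not always go with a high receptor complex sum. In library 3 of NoTumor-CD40 the cDC1 markers summed to 3581 CPM and the mature dendritic cell markers to 35070 CPM. The receptor complex summed to 273.0 CPM there, within the range of the tumor-free libraries. The correlations of the 15 cDC1 markers with the receptor complex profile were all negative, between -0.80 for Irf8 and -0.32 for Batf3, with a median of -0.58. Those of the 15 mature dendritic cell markers had a median of 0.27, and those of the 14 B cell markers a median of 0.18. The B cell markers had another distribution over the groups. They summed to 863.9 to 2458 CPM in Tumor-CD40 and 86.7 to 196.1 CPM in Tumor-NoCD40 libraries. The sums were 104.2 to 294.4 CPM in NoTumor-CD40 and 53.0 to 130.4 CPM in NoTumor-NoCD40 libraries. By edgeR's test 12 of the 14 rose with the agonist in mice with the tumor, where 0.685% of all genes passed. By the same test 7 of the 14 were higher in Tumor-CD40 than in NoTumor-CD40 libraries, where 0.199% of all genes passed. In library 2 of Tumor-CD40 the B cell markers summed to 863.9 CPM while the receptor complex summed to 178.7 CPM. The part of these shifts in the levels of the receptor complex was not tested.

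**Figure D5:**
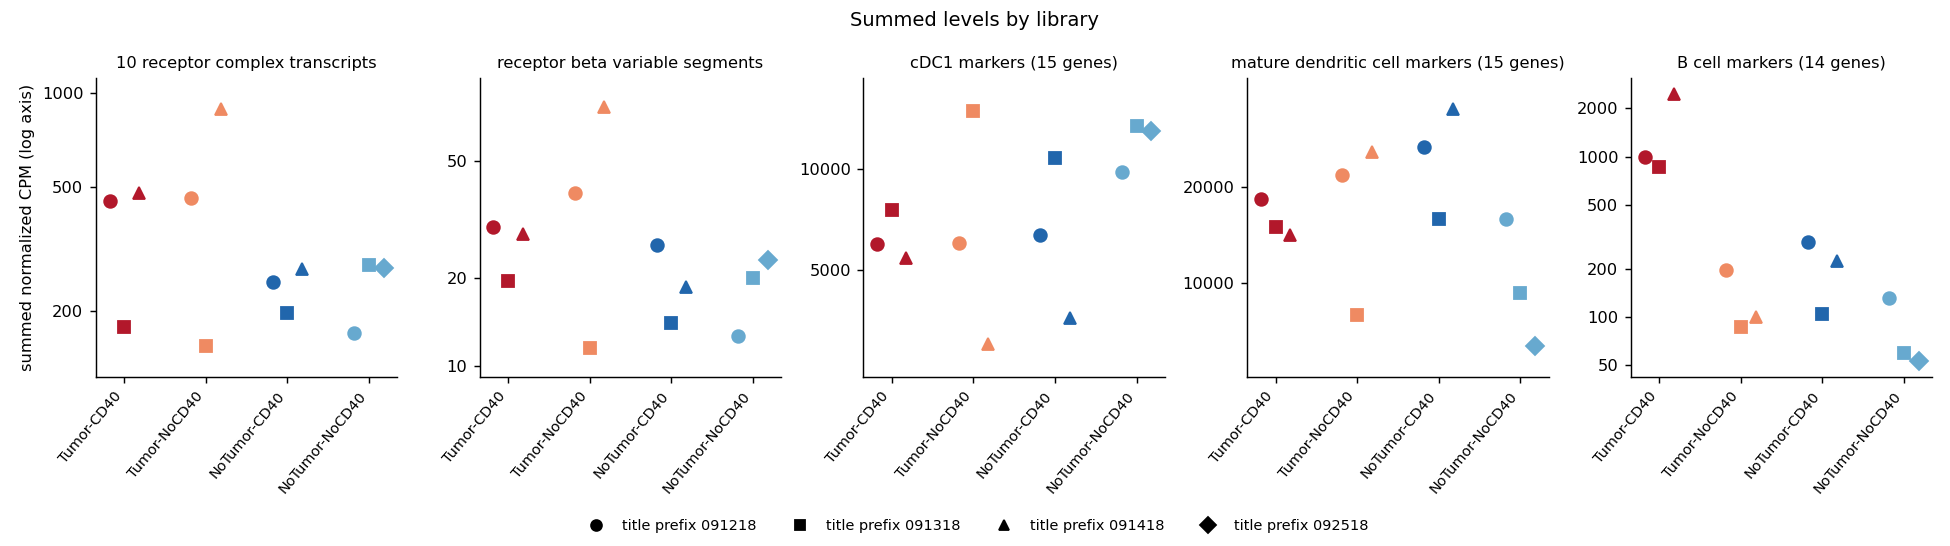
Summed CPM (log axis) by library of the 10 receptor complex transcripts, the beta variable segments, and markers of cDC1, mature dendritic cells and B cells, with marker shapes for title prefixes. The receptor complex and the beta segments are highest in library 3 of Tumor-NoCD40, where the cDC1 sum is lowest, and the B cell sums are highest in Tumor-CD40.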

How the data were processed

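RNA-seq values of 12 libraries were used as deposited. Per the labels' protocols, the extraction kit was Qiagen RNeasy Plus Micro and the library kit NEBNext Ultra II Directional. Per the submitters' processing notes the tool was Salmon and the build mm10; the version and annotation are not given in the sources used here. For each transcript the authors deposited an expected count, estimated and without normalization, and a TPM, scaled by length and total. Salmon divides reads shared by transcripts, so levels of near-identical genes and of single transcripts are less certain than gene sums.

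Both tables hold 136288 transcripts, of which 136176 were assigned to 53458 genes with GENCODE M21; the other 112 held 0.0279% to 0.0457% of the counts and were left out. Gene sums of expected counts were rounded to whole numbers, filtered (filterByExpr, at least 10 counts in a library of median size and 15 in total), scaled by TMM and tested with edgeR 4.0.16 (quasi-likelihood test, R 4.3.3) in 1 fit of the 4 groups with 8 residual degrees of freedom, with Benjamini-Hochberg adjustment over all 18095 genes and a threshold of 0.05. The SE of a fold change was taken from its size and the square root of F. The fit was tested on simulated counts, drawn with edgeR's own estimates of spread and without a part for title prefix. For the agonist without tumor on 16960 genes, 15% of 2-fold and 47% of 4-fold changes were recovered, and 4.62% of the calls were false. Alternatives were limma-voom (limma 3.58.1), DESeq2 1.42.0, other filters and scalings, a block by title prefix and leaving out libraries. Correlations used log2(CPM + 1).

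All 10 genes are named in every comparison, as are list genes past the threshold and the 10 genes most like the mean profile. The genes and lists were chosen with earlier results of these data known. Counting error is small at these depths, and the spread between 3 libraries limits the precision.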

Additional observations from a re-analysis of the deposited data

How the results depend on the processing

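The count of the 10 genes past the threshold was 0 in all 5 comparisons by edgeR, DESeq2 and limma-voom, without a filter on low counts, with relative log expression factors, with glmQLFit in legacy mode, with the replicate block by title prefix and without any 1 library. It was 1 in a single setting, chosen after seeing the data: without the libraries of prefix 091318, Cd8b1 passed for the agonist without tumor (log2 1.26, adjusted p = 0.0474), and without them the median log2 fold change for the tumor without agonist was 1.61 with a lowest adjusted p of 0.0589. Without prefix 091418 that median was 0.30. Counts over all genes, in the order agonist without tumor, agonist with tumor, tumor without agonist, tumor with agonist and interaction, were 261, 124, 0, 36 and 0. They were 913, 316, 29, 166 and 18 by DESeq2. On simulated counts for the first comparison DESeq2 made 28.4% false calls. Those counts were drawn with edgeR's own estimates of spread and without a part for title prefix, so they cannot rank the methods on these data. Without a filter they were 401, 200, 1 and 89 in all but the interaction. By limma-voom they were 120 and 36 for the agonist and 0 for the tumor with agonist, and in legacy mode 61 for the agonist with tumor and 0 for the tumor with agonist. Leaving out 1 library at a time gave 22 (NoTumor-NoCD40 library 3) to 947 (NoTumor-CD40 library 2), 26 (Tumor-NoCD40 library 1) to 226 (Tumor-NoCD40 library 2), 0 to 2 (Tumor-NoCD40 library 3), 0 (NoTumor-CD40 library 2 or 3) to 71 (Tumor-CD40 library 2), and 0 to 0. The main fit took no pairs by title prefix, because the labels do not say what the prefix stands for. Its SE and p-values therefore leave out any likeness within a prefix. The deviations of libraries with the same prefix correlated by 0.02 to 0.18 over all genes, positive in every pair but not always above 0.1. All 6 libraries of both comparisons with 3 shared prefixes correlated best with their own prefix. Over the 10 genes alone the correlations were 0.27, 0.60 and 0.51 for the agonist with tumor and lay between -0.23 and 0.30 in the other comparisons. With the block the counts were 48 and 229 for the agonist without and with tumor and 83 for the tumor with agonist. In that fit Cd3d (-0.24) and Cd8b1 (-0.00385) turned for the agonist without tumor, and Cd3d (0.00515), Cd3e (0.0585), Trbc2 (0.16) and Lat (0.0813) for the interaction, as did Cd4 (0.0498) by limma-voom. Of 660 log2 fold changes of the 10 genes under alternatives planned, 47 changed sign and none was called.

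Leaving out 1 library turned the sign of some of these values, whose ranges follow. For the agonist with tumor they were -0.87 to 0.56 for Cd3d, -0.92 to 0.28 for Cd3e, -0.67 to 0.21 for Cd3g, -1.06 to 0.30 for Lat, -0.78 to 0.51 for Lck, -0.79 to 0.24 for Trac and -0.95 to 0.35 for Trbc2. For the agonist without tumor they were -0.62 to 0.0284 for Bcl11b, -0.33 to 0.0951 for Cd3e, -0.34 to 0.0767 for Trac and -0.23 to 0.10 for Trbc2. For the interaction they were -0.96 to 0.26 for Bcl11b, -0.99 to 0.43 for Cd3d, -0.78 to 0.41 for Cd3e, -0.38 to 0.50 for Cd3g, -0.37 to 0.27 for Cd4, -0.77 to 0.59 for Lat, -1.07 to 0.20 for Lck, -0.68 to 0.34 for Trac and -0.90 to 0.39 for Trbc2. For the tumor with agonist they were -0.22 to 0.26 for Bcl11b and -0.12 to 0.55 for Cd8b1. For the tumor without agonist the range was -0.18 to 1.03 for Bcl11b. The cause of these changes was not tested. With TPM of summed transcripts in place of CPM the correlation of Cd4 with Cd3e was 0.520 (adjusted p = 0.0885), where short transcripts carry much of the Cd4 TPM, Cd4-201 holding as little as 11.8% of it. Without 1 library the correlations with Cd3e lay between 0.67 for Bcl11b and 0.98 for Lat.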
